A study of Mus musculus with 6 samples.

Results

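The genes described here are those annotated to the KEGG lysosome pathway: 118 rows of the 19353 in the deposited table have a KEGG term that contains "Lysosome". Every one of the 118 was put into a class by its known function. There were 15 cathepsins and other proteases, 17 glycosidases, 21 sulfatases, lipases and other hydrolases, 24 membrane proteins, 10 proton pump genes and 31 sorting adaptors and receptors. The cells were purified primary bone marrow mesenchymal stem cells of wild-type mice, the precursors of osteoblasts, adipocytes and chondrocytes. Both groups underwent osteogenic induction, in medium supplemented with dexamethasone (100 nM), ascorbic acid (50 µM) and β-glycerophosphate (10 mM). The 3 MCH libraries came from cells that were also given 0.5 µM MCH, melanin-concentrating hormone, a neuropeptide of the hypothalamus. The 3 Control libraries came from cells in the same medium without the hormone. The sample titles give day 9 of induction, while the design text gives day 8. The comparison addresses the effect of added MCH on gene expression during osteogenic differentiation.

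The lysosome is an acidic, membrane-bound compartment in which cells break down proteins, sugars, sulfated glycans and lipids. Its soluble hydrolases receive a mannose 6-phosphate tag in the Golgi, are picked up there by mannose 6-phosphate receptors and are packed into clathrin-coated carriers with the help of GGA and AP-1 adaptors. Transcription factors of the MiT/TFE family, such as TFEB and TFE3, are known to drive many lysosomal genes through E-box motifs in their promoters. Osteoclasts, the bone-resorbing cells, use a specialised set of lysosomal proteins, among them cathepsin K and a form of the proton pump.

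Library totals ran from 16521980 to 18803949 counts. Whether replicate libraries stem from different mice or dishes is not stated. The p-values therefore reflect the spread among these libraries alone, and that spread may be technical. In bulk RNA, fewer cells of a type and less RNA per cell cannot be told apart. MCH stands in the names of the MCH columns, and the other 3 columns were taken as Control because the series has no other group. The mesenchymal genes Col1a1 and Col1a2 had 64369 to 112929 counts per library, and the pan-leukocyte gene Ptprc had 0 to 2. Of 14 macrophage markers, 5 passed the filter on low counts, and 1 of these, Cd14, was called, lower with MCH. CPM is the count scaled to library size by TMM. The summed level of the 14 was 103 to 134 CPM with MCH and 143 to 145 CPM in Control, to which Cd14 gave 1538, 1712 and 1672 counts in the MCH libraries and 2037, 2388 and 2271 in Control. MCH replicate 3 stood apart in other macrophage genes, with 50 counts of Adgre1 and 31 of C1qb, against 0 to 11 and 0 to 9 in the other libraries. Of 6 osteoclast markers in the table, the 3 tested, Mmp9, Nfatc1 and Itgb3, were all lower with MCH, beside 5.4% of all tested genes. The list summed to 28.3 to 32.2 CPM with MCH and 53.8 to 55.9 CPM in Control. These 3 genes gave nearly all of it. Nfatc1 averaged 18.5 CPM with MCH and 33.6 CPM in Control, Mmp9 5.59 and 11.4 CPM, and Itgb3 5.57 and 9.52 CPM. The defining osteoclast genes Tnfrsf11a and Ocstamp had 0 to 3 and 0 to 8 counts. Of 9 mesenchymal markers, 4 were lower with MCH (Pdgfrb, Pdgfra, Col1a2 and Col1a1), beside 5.4% of all tested genes. Prrx1, Thy1, Runx2, Cxcl12 and Twist1 were not called. The list summed to 8101 to 8948 CPM with MCH and 11434 to 12393 CPM in Control. Most of this sum was collagen: Col1a1 averaged 3813 CPM with MCH and 5172 CPM in Control, and Col1a2 4119 and 5912 CPM. The part of these shifts in the differences described next was not tested.

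Most lysosome genes differed little between MCH and Control. Of the 118 genes, 109 passed the filter on low counts, of which 3 were higher with MCH and 5 lower by the quasi-likelihood test of edgeR, at a Benjamini-Hochberg adjusted p under 0.05 over all 13662 genes tested. Over all tested genes 3.64% were higher and 5.4% lower, and over the 109 lysosome genes the shares were 2.75% and 4.59%. In either direction, 7.34% of the lysosome genes were called, beside 9.04% of all tested genes. Their median log2 fold change, MCH minus Control, was -0.03, beside 0.00 over all tested genes. For 87 of the 109 (79.8%) the difference was under 1.2-fold, beside 63.7% of all tested genes. The median SE of the log2 fold change was 0.089 for the lysosome genes and 0.122 for all tested genes. These shares were therefore not set at equal precision. All MCH libraries lay above all Control libraries for 13 of the 109 (11.9%, beside 16.1% of all tested genes) and below them for 24 (22.02%, beside 16.6%).

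**Figure D1:**
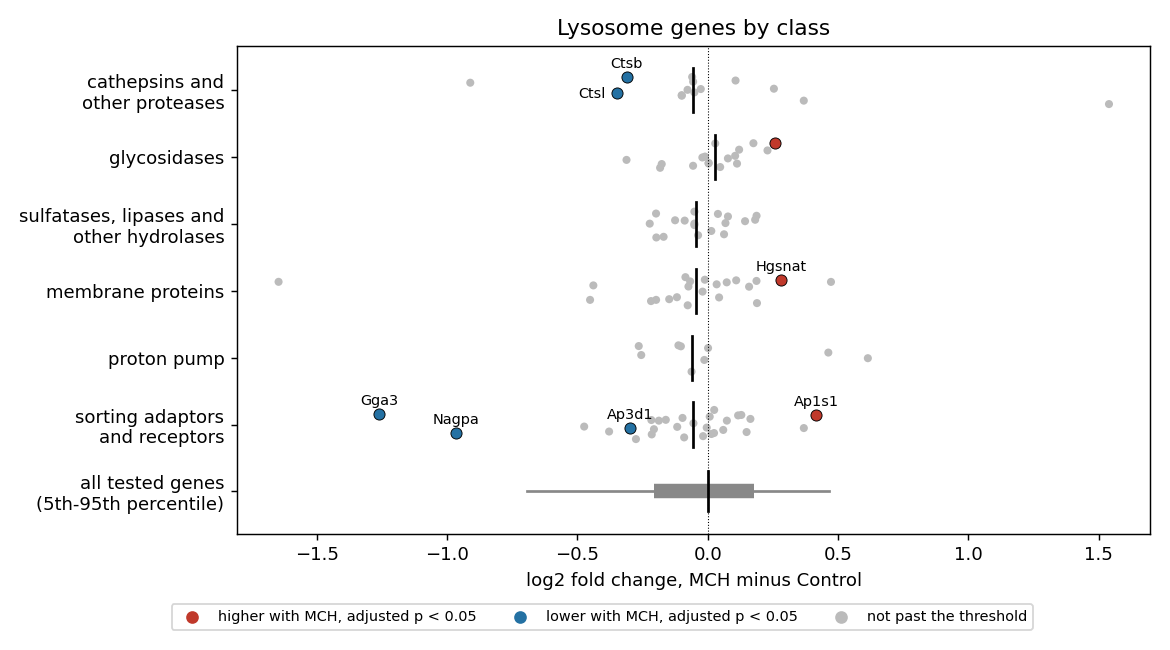
Log2 fold change, MCH minus Control, of the 109 tested lysosome genes by class, 1 point a gene, with the class median as a black line; for all 13662 tested genes the grey bar is the interquartile range and the thin line spans the percentiles named on the axis. Class medians lie between -0.06 and 0.03, and the called genes Gga3 and Nagpa lie at -1.26 and -0.97.

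Of the called genes, 7 are described here: the cathepsin genes Ctsb and Ctsl, the membrane enzyme gene Hgsnat and, from the sorting class, Gga3, Nagpa, Ap3d1 and Ap1s1. Among these 7, the call of Gga3 was the one that held in each of the 6 fits with 1 library left out. Ctsl kept its call in 4 of these fits, Ap1s1 in 2, Hgsnat, Ap3d1 and Nagpa in 1 each, and Ctsb in 0. The sign of each of the 7 was the same in all 6 fits. Below, a value with ± beside a gene and no unit is its log2 fold change, MCH minus Control, with its SE.

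**Figure D2:**
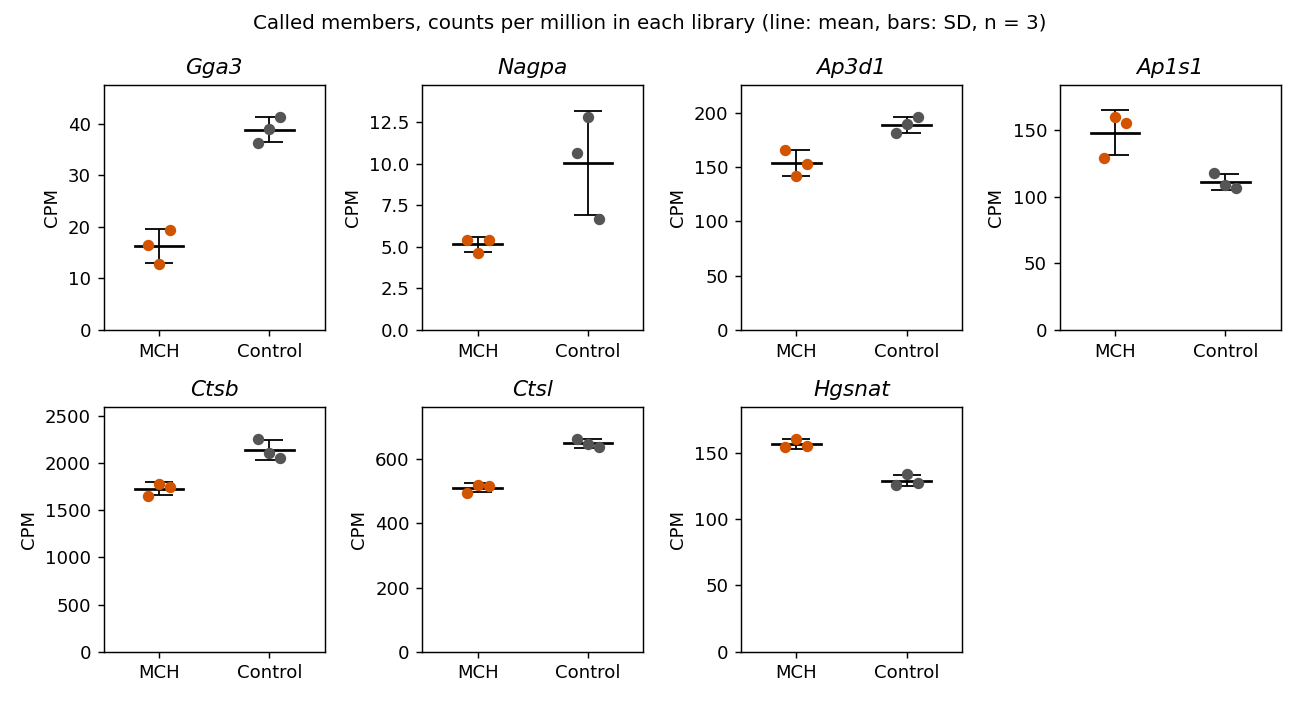
CPM values (library-scaled counts) of the 7 called lysosome genes described here in each library, with the mean as a line and the SD as bars (n = 3 libraries a group). The MCH and Control libraries do not overlap in any panel; Gga3 averages 16.2 CPM with MCH and 38.9 CPM in Control.

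The sorting class held the largest called difference. Gga3 (chr11:115584255-115604051 in GRCm38) encodes a GGA protein, an adaptor that gathers mannose 6-phosphate receptors into carriers at the trans-Golgi network. It stood at 16.5, 12.9 and 19.4 CPM in the MCH libraries, against 36.3, 39.0 and 41.3 CPM in Control. The highest MCH library was well below the lowest Control library. Gga3 fell by 1.26 ± 0.15 on the log2 scale (SE; edgeR adjusted p = 0.00343). In the authors' deposited table Gga3 has a q-value of 9.35e-07, with mean FPKM of 1.55 in the MCH columns and 3.73 in the other columns. Exons of Gga3 overlap those of Mrps7, on the opposite strand, over 2.0% of their bases, and the log2 fold change of Mrps7 was 0.17 (edgeR adjusted p = 0.252). Neither of the other GGA genes passed. Gga2 had 43.5, 50.2 and 33.6 CPM in the MCH libraries, against 62.7, 66.2 and 48.0 CPM in Control, and the groups overlapped (log2 fold change -0.47 ± 0.18, edgeR adjusted p = 0.146). Gga1 had 83.0, 84.0 and 81.1 CPM in the MCH libraries, against 99.0, 88.9 and 100.3 CPM in Control, and here the groups did not overlap, although the difference was small (-0.22 ± 0.07, edgeR adjusted p = 0.0895).

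Nagpa (chr16:5195289-5204012) encodes the uncovering enzyme, which removes the covering sugar from the tag and so exposes mannose 6-phosphate. It stood at 5.398, 4.63 and 5.39 CPM in the MCH libraries, against 10.6, 12.8 and 6.67 CPM in Control. The MCH libraries were close together, while Control replicate 3 was nearer to them than the other Control libraries were. Nagpa fell by 0.97 ± 0.24 on the log2 scale (edgeR adjusted p = 0.0455), a change of -0.75 without Control replicate 2 and -1.19 without Control replicate 3. The call was lost without any 1 library other than Control replicate 3 (highest adjusted p = 0.139), and with limma on log2(FPKM + 1) (adjusted p = 0.0675). In the authors' deposited table its q-value is 0.0329. Gnptab and Gnptg, subunits of the phosphotransferase that attaches the tag, did not pass, at -0.19 ± 0.11 and 0.12 ± 0.13, and their groups overlapped. Exons of Gnptg overlap those of Unkl, on the opposite strand, over 49.5% of their bases. No strand setting is stated, so reads from this overlap cannot be told apart.

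Neither mannose 6-phosphate receptor passed. Igf2r, the large receptor, which also binds insulin-like growth factor 2, had 120.3, 87.3 and 92.4 CPM in the MCH libraries, against 103, 123 and 119 CPM in Control (-0.21 ± 0.13, edgeR adjusted p = 0.366). MCH replicate 1 stood among the Control values, and without it the log2 fold change was -0.36 (edgeR adjusted p = 0.0460). M6pr, the small receptor, had 188 ± 21.4 CPM with MCH and 195 ± 15.2 CPM in Control (SD, n = 3; -0.05 ± 0.10). Sort1, which encodes sortilin, a sorting receptor that does not need the tag, had 27, 26 and 46 counts in the MCH libraries and 30, 27 and 41 in Control.

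Among the adaptor complexes, single subunits were called and their partners were not. Ap3d1 (chr10:80706978-80742211) encodes the delta subunit of AP-3, a complex that carries membrane proteins to lysosomes and related organelles. It stood at 166, 142 and 153 CPM in the MCH libraries, against 181, 189 and 196 CPM in Control, with no overlap, and fell by 0.30 ± 0.07 on the log2 scale (edgeR adjusted p = 0.0446). Leaving out any library but MCH replicate 1 ended the call (highest adjusted p = 0.152), as did limma on log2(FPKM + 1) (adjusted p = 0.0676). Its partner Ap3b1 had 63.0, 60.3 and 60.2 CPM in the MCH libraries, against 71.2, 71.9 and 69.8 CPM in Control and did not overlap either (-0.21 ± 0.06, edgeR adjusted p = 0.0723). The other AP-3 subunit genes with enough counts, Ap3m1, Ap3m2 and Ap3s1, lay between 0.01 and 0.16, and Ap3s2 was close to 0, each with overlapping groups. Exons of Ap3m1 overlap those of Vcl, on the opposite strand, over 29.8% of their bases, with the same limit on reads. Ap1s1 (chr5:137034993-137046135), a small subunit of AP-1, stood at 129, 159.8 and 155 CPM in the MCH libraries, against 118, 108 and 107 CPM in Control, and MCH replicate 1 was the lowest of the MCH libraries. It rose by 0.42 ± 0.09 on the log2 scale (edgeR adjusted p = 0.0333), and the call was kept only when MCH replicate 1 or Control replicate 1 was the library left out (highest adjusted p = 0.126).

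The other AP-1 genes did not pass. Ap1b1, the large beta subunit, was -0.16 ± 0.06 with non-overlapping groups, and Ap1m1, Ap1g2, Ap1s2 and Ap1s3 lay between -0.09 and 0.13. Ap1g1, the gamma subunit, varied widely within both groups, at 96.9, 80.7 and 25.5 CPM in the MCH libraries, against 32.5, 72.4 and 78.1 CPM in Control (0.15 ± 0.63). Of AP-4, a complex that acts at the trans-Golgi network, Ap4e1 had the largest difference (-0.38 ± 0.15, edgeR adjusted p = 0.168). Its levels were 7.27, 5.36 and 5.63 CPM in the MCH libraries, against 7.80, 8.27 and 7.66 CPM in Control. The clathrin light chain gene Cltb had 85.8, 116 and 109 CPM in the MCH libraries, against 80.8, 76.0 and 83.7 CPM in Control, so that every MCH library was above every Control library. It did not pass (0.37 ± 0.11, edgeR adjusted p = 0.0831), but did without MCH replicate 1 (adjusted p = 0.0108) and with DESeq2 (adjusted p = 0.0440). The heavy chain gene Cltc (-0.10 ± 0.09) and the light chain gene Clta (0.07 ± 0.09) overlapped between groups. Over the class, 1 of 29 tested genes was higher and 3 were lower (median -0.05). The shares were 3.45% and 10.3%, beside 3.64% and 5.4% of all tested genes. Ap1m2 and Ap3b2, forms of the subunits used in epithelial and nerve cells, were not tested, with 0 to 5 counts in each library.

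**Figure D3:**
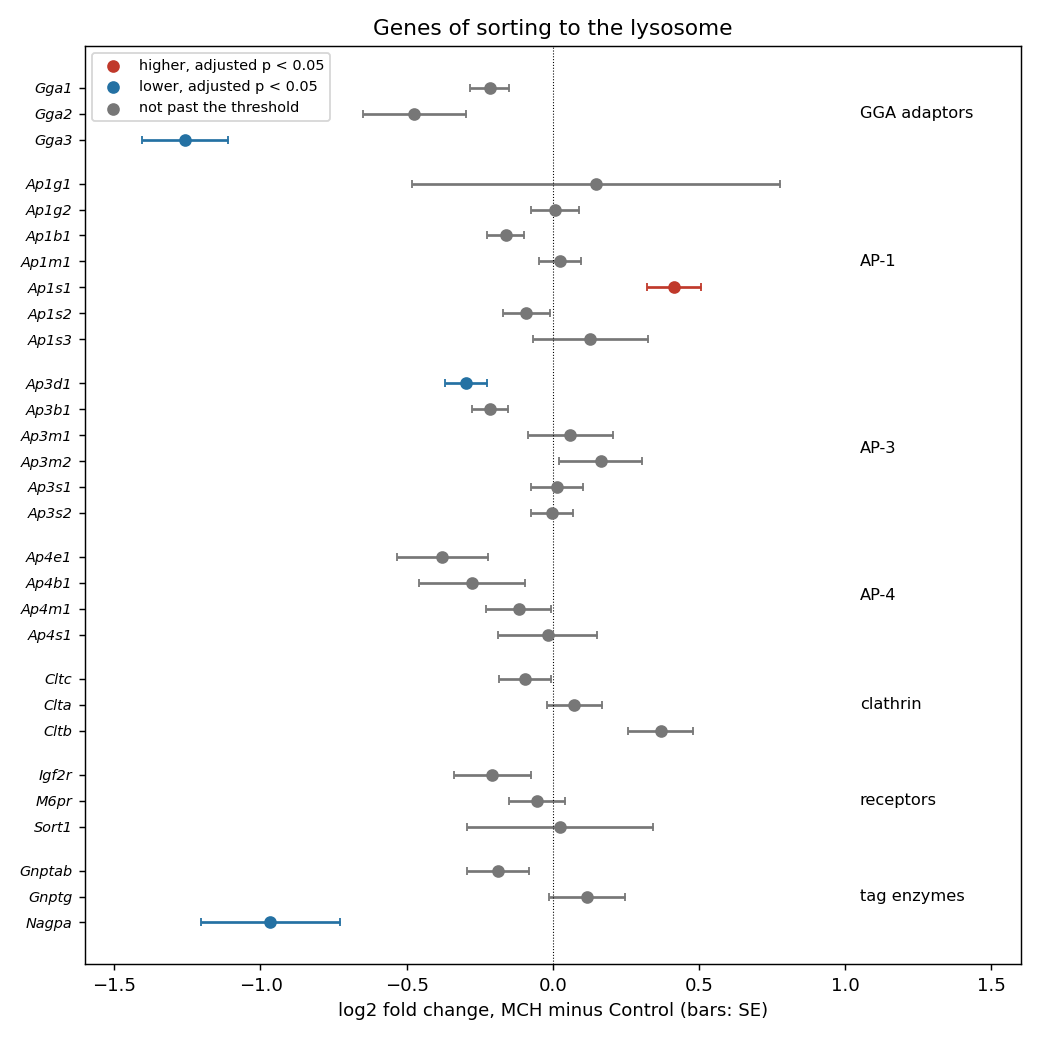
Log2 fold change, MCH minus Control, with its SE, of the 29 tested genes of sorting to the lysosome, grouped by complex or step. Gga3, Nagpa and Ap3d1 (blue) lie below 0 and Ap1s1 (red) above it; the wide bar of Ap1g1 reflects a spread of 25.5 to 96.9 CPM among the MCH libraries.

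Cathepsins, the proteases of the lysosome, were among the most abundant members. Ctsb (chr14:63122462-63145919) encodes cathepsin B, a cysteine protease, and stood at 1648, 1782 and 1748 CPM in the MCH libraries, against 2259, 2104 and 2057 CPM in Control. Ctsl (chr13:64363214-64370306) encodes cathepsin L, a related cysteine protease, and stood at 495, 521 and 516 CPM in the MCH libraries, against 664, 648 and 637 CPM in Control. For both genes every MCH library was below every Control library. Ctsl fell by 0.35 ± 0.06 on the log2 scale (edgeR adjusted p = 0.0133), a call lost without MCH replicate 3 or Control replicate 2 (highest adjusted p = 0.0739). Ctsb fell by 0.31 ± 0.07 (edgeR adjusted p = 0.0376), a call lost without any 1 of the 6 libraries (highest adjusted p = 0.142). Exons of Ctsb overlap those of Fdft1, on the opposite strand, over 12.8% of their bases, and without a stated strand setting reads from the overlap cannot be told apart. The log2 fold change of Fdft1 was -0.24 (edgeR adjusted p = 0.0840). Exons of Ctsl overlap those of Gm47123, on the opposite strand, over 26.8% of their bases. They overlap the pseudogene Gm49230, on the same strand, over 6.1%. Neither is in the deposited table, and the limit on reads from an overlap also holds for Ctsl.

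The other cathepsins did not pass. Ctsd, which encodes the aspartic protease cathepsin D, had 791 ± 43.3 CPM with MCH and 824 ± 38.2 CPM in Control (SD, n = 3; -0.06 ± 0.07). Ctsz had 354 ± 17.7 CPM with MCH and 360.4 ± 26.2 CPM in Control (-0.03 ± 0.07). Lgmn, the asparaginyl protease that processes cathepsins, was -0.10 ± 0.06, Ctsa, a carboxypeptidase that also protects other lysosomal enzymes, -0.08 ± 0.06, and Tpp1, a tripeptidyl peptidase, -0.06 ± 0.06. For these 5 genes the difference was small in log2 terms. Ctsw had 18, 8 and 10 counts in the MCH libraries and 18, 24 and 27 in Control, with no overlap between groups after scaling (-0.91 ± 0.37, edgeR adjusted p = 0.167). Over the class 0 of 14 tested genes were higher and 2 lower (median -0.06). The shares were 0% and 14.3%, beside 3.64% and 5.4% of all tested genes. Napsa had 0 to 9 counts and was not tested.

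Several genes that osteoclasts and phagocytes use had few counts. Ctsk, the collagen-degrading cathepsin K of osteoclasts, had 25, 21 and 20 counts in the MCH libraries and 21, 23 and 18 in Control, and the groups overlapped (0.11 ± 0.25). Acp5, the tartrate-resistant acid phosphatase of osteoclasts, had 7, 16 and 4 counts in the MCH libraries and 2, 19 and 1 in Control. Atp6v0d2, the pump subunit of osteoclasts, had 9, 1 and 29 counts in the MCH libraries and 1, 6 and 0 in Control. Both were too low to test. Ctss, the cathepsin of antigen-presenting cells, had 7, 9 and 92 counts in the MCH libraries and 5, 23 and 10 in Control. Its high value was in MCH replicate 3, the library with Adgre1 and C1qb, and so were the highest counts of Laptm5 (36, against 4 to 12 elsewhere) and Atp6v0d2. The log2 fold change of Ctss was 1.54 ± 1.21 with this library and -0.62 without it. Cd68, a heavily glycosylated membrane protein of macrophage lysosomes, had 40.5, 43.2 and 54.2 CPM in the MCH libraries, against 37.2, 30.2 and 31.9 CPM in Control, with no overlap. It did not pass (0.47 ± 0.13, edgeR adjusted p = 0.0655), but did with DESeq2 (adjusted p = 0.0225), without a filter on low counts (adjusted p = 0.0423) and without MCH replicate 1 (adjusted p = 0.0396). Without MCH replicate 3 its log2 fold change was 0.34 (adjusted p = 0.183). The part of macrophage RNA in these differences was not tested.

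Glycosidases remove sugars from glycoproteins, glycolipids and glycosaminoglycans. Among the 17 genes 1 was called, higher with MCH (5.88%, beside 3.64% of all tested genes). The class median was 0.03. Hexa, the alpha subunit of a hexosaminidase, had 145, 159 and 156 CPM in the MCH libraries, against 164, 148 and 156 CPM in Control, and the groups overlapped (-0.02 ± 0.06).

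Several glycosidase genes with separated groups did not pass. Galc, which degrades galactosylceramide, had 15.4, 14.4 and 15.4 CPM in the MCH libraries, against 18.9, 19.0 and 18.2 CPM in Control (-0.31 ± 0.09, edgeR adjusted p = 0.0705). Gaa, the acid glucosidase that degrades glycogen, had 281 ± 4.85 CPM with MCH and 319 ± 14.9 CPM in Control (SD, n = 3; -0.18 ± 0.06, edgeR adjusted p = 0.0919). Gla, the alpha-galactosidase, was -0.18 ± 0.06 (edgeR adjusted p = 0.0894). All 3 had lower values in every MCH library than in any Control library. Glb1, the beta-galactosidase, pointed the other way, with 144 ± 0.552 CPM with MCH and 132 ± 5.30 CPM in Control (0.12 ± 0.06, edgeR adjusted p = 0.211). So did Man2b1, with 112 ± 2.04 and 104 ± 6.20 CPM (0.11 ± 0.06, edgeR adjusted p = 0.337). Over the 17 genes, all MCH libraries lay above all Control libraries for 3 and below them for 3. Among all tested genes these shares were 16.1% and 16.6%. Of the 17 log2 fold changes, 11 were above 0. Aga, which frees asparagine from glycans, had 57.6 ± 2.70 FPKM with MCH and 58.0 ± 4.47 FPKM in Control and overlapping groups.

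Among sulfatases, lipases and other hydrolases, edgeR called 0 of 18 tested genes, beside 9.04% of all tested genes. In the class, 4 had an unadjusted p under 0.05 (class median -0.04). DESeq2 called 1, and limma on log2(FPKM + 1) called 1, in both cases Psap, lower with MCH. Psap encodes prosaposin, the precursor of the saposins that help glycosidases reach their lipids. It stood at 1331, 1381 and 1385 CPM in the MCH libraries, against 1628, 1565 and 1587 CPM in Control, with no overlap (-0.22 ± 0.06; edgeR adjusted p = 0.0657; DESeq2 adjusted p = 0.0123). Lipa, the acid lipase that frees cholesterol from its esters, had 61.5, 55.2 and 59.3 CPM in the MCH libraries, against 63.8, 69.4 and 68.7 CPM in Control. The groups did not overlap and the gene did not pass (-0.20 ± 0.07, edgeR adjusted p = 0.136). Smpd1, the acid sphingomyelinase (0.08 ± 0.06), Arsb, the sulfatase of dermatan sulfate (0.19 ± 0.08), and Pla2g15, a phospholipase (0.14 ± 0.06), had higher values in every MCH library than in any Control library, and none passed. Over the 18 tested genes of the class, all MCH libraries lay above all Control libraries for 3 and below them for 5. Among all tested genes the shares were 16.1% and 16.6%. Acp5, Dnase2b and Psapl1 were too low to test.

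In the class of membrane proteins, in which Npc2 is known as a soluble protein, 1 of 22 tested genes was higher and none lower by edgeR. The higher share was 4.55%, beside 3.64% higher and 5.4% lower over all tested genes. In the class, 6 genes had an unadjusted p under 0.05 (class median -0.04). Hgsnat (chr8:25944459-25976744) encodes the acetyltransferase that works across the lysosomal membrane in heparan sulfate breakdown. It stood at 154, 161 and 155 CPM in the MCH libraries, against 126, 134 and 128 CPM in Control, with no overlap, and rose by 0.28 ± 0.05 on the log2 scale (edgeR adjusted p = 0.0235). The call was kept without MCH replicate 1 and lost without any other library (highest adjusted p = 0.0938). The main structural proteins of the membrane did not pass. Lamp1 stood at 784, 722 and 732 CPM in the MCH libraries, against 749, 755 and 751 CPM in Control (-0.01 ± 0.06), and Lamp2 was -0.02 ± 0.06, with overlapping groups for both. Cd63, a tetraspanin of late endosomes and the most abundant member per length, had 551 ± 35.8 FPKM with MCH and 637 ± 36.1 FPKM in Control (SD, n = 3; -0.20 ± 0.08, edgeR adjusted p = 0.176).

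The cholesterol exporters of the lysosome, the membrane protein of Npc1 and the soluble carrier of Npc2, did not pass, at -0.12 ± 0.07 and -0.15 ± 0.08. Slc11a1, a metal transporter of phagocytes, had 7, 13 and 3 counts in the MCH libraries and 15, 31 and 28 in Control. Its groups did not overlap and it had the lowest fold change of all tested members, yet edgeR did not call it (-1.65 ± 0.49, adjusted p = 0.0749). In the authors' deposited table Slc11a1 has a q-value of 0.0264 and is marked UP, a mark which there means a higher mean in the columns without MCH. Cln3, a membrane protein affected in a juvenile storage disease, had 6.45, 6.77 and 5.57 CPM in the MCH libraries, against 8.79, 8.16 and 8.76 CPM in Control (-0.45 ± 0.13, edgeR adjusted p = 0.0747). Lamp3 had 8, 8 and 9 counts in the MCH libraries and 2, 3 and 5 in Control, too low to test.

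For the proton pump, the V-ATPase that acidifies the lumen, edgeR called 0 of 9 tested genes, beside 9.04% of all tested genes. None of the 9 had an unadjusted p under 0.05 (class median -0.06). DESeq2 called 1 and limma on log2(FPKM + 1) called 0. Of the 4 genes for the membrane subunit a, Tcirg1, the form used in the osteoclast pump, gave 65.8% of their summed FPKM with MCH and 66.0% in Control. Tcirg1 had 95.8, 96.7 and 103 CPM in the MCH libraries, against 107, 95.9 and 115 CPM in Control, with overlapping groups (-0.10 ± 0.08). Atp6ap1, an accessory subunit and the 1 gene called by DESeq2, had 181, 312 and 178 CPM in the MCH libraries, against 133, 137 and 169 CPM in Control. Every MCH library was above every Control library, but MCH replicate 2 was far above the rest, and the log2 fold change was 0.61 ± 0.26 with it and 0.30 without it (edgeR adjusted p = 0.213 and 0.187). Atp6v0c, the proteolipid ring subunit, had 123, 163 and 156 CPM in the MCH libraries, against 142, 115 and 62.9 CPM in Control, and here Control replicate 3 was the low library (0.46 ± 0.33). A further list held 12 pump genes outside the KEGG rows, most of them of the catalytic V1 sector, together with the membrane-sector genes Atp6v0e and Atp6v0e2 and the accessory gene Atp6ap2. Of the 11 tested, edgeR called 0, with 1 at an unadjusted p under 0.05, which was Atp6v0e (0.20 ± 0.08, edgeR adjusted p = 0.186). Neither DESeq2 nor limma on log2(FPKM + 1) called any.

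Summed over the 118 genes, lysosome transcripts were less abundant in each MCH library than in any Control library. No test was made on this sum. It was 14940.3, 15570.3 and 15224 CPM in the MCH libraries, against 16534, 16080.2 and 16108 CPM in Control. The mean difference was -6.13%. Without the 5 genes with the largest CPM decreases, the other 113 summed to 10210, 10403 and 10179.5 CPM in the MCH libraries. In Control they summed to 10386, 10281 and 10258 CPM, so the groups overlapped, with a mean difference of -0.425%. The 5 genes, Ctsb, Psap, Ctsl, Npc2 and Cd63, were picked by their decrease, and no gene with an increase was left out. The largest differences in mean level, MCH minus Control, were -414 CPM for Ctsb, -228 CPM for Psap and -139 CPM for Ctsl on the lower side. On the higher side they were 77.6 CPM for Atp6ap1, 40.4 CPM for Atp6v0c and 37.0 CPM for Ap1s1. By class, the cathepsins and other proteases summed to 3985, 4256 and 4196 CPM in the MCH libraries, against 5006, 4642 and 4687 CPM in Control. The sulfatases, lipases and other hydrolases summed to 2328, 2349.7 and 2395 CPM in the MCH libraries, against 2612, 2609 and 2579.6 CPM in Control. The mean of these sums differed by -13.2% for the proteases and -9.34% for the sulfatases, lipases and other hydrolases. The protease sum differed by -633 CPM, of which Ctsb gave -414 CPM and Ctsl -139 CPM. The sum of the sulfatases, lipases and other hydrolases differed by -243 CPM, of which Psap gave -228 CPM. The membrane proteins differed by -2.83%, and their groups did not overlap either. This was -124 CPM, beside -87.1 CPM for Npc2, whose product is soluble, and -84.0 CPM for Cd63. The proton pump sum went the other way, by 12.6%, and its groups overlapped. It was 742, 921 and 779 CPM in the MCH libraries, against 747, 696 and 725 CPM in Control. Its mean difference was 91.0 CPM, beside 77.6 CPM for Atp6ap1 and 40.4 CPM for Atp6v0c, each with 1 deviating library. Of the 9 tested pump genes, 6 had a log2 fold change below 0. The sorting genes differed by -3.78% and the glycosidases by -0.270%, both with overlapping groups. The 10 most abundant genes per length made up 63.0% of the summed FPKM, and 22 of the 118 had a mean below 1 FPKM.

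**Figure D4:**
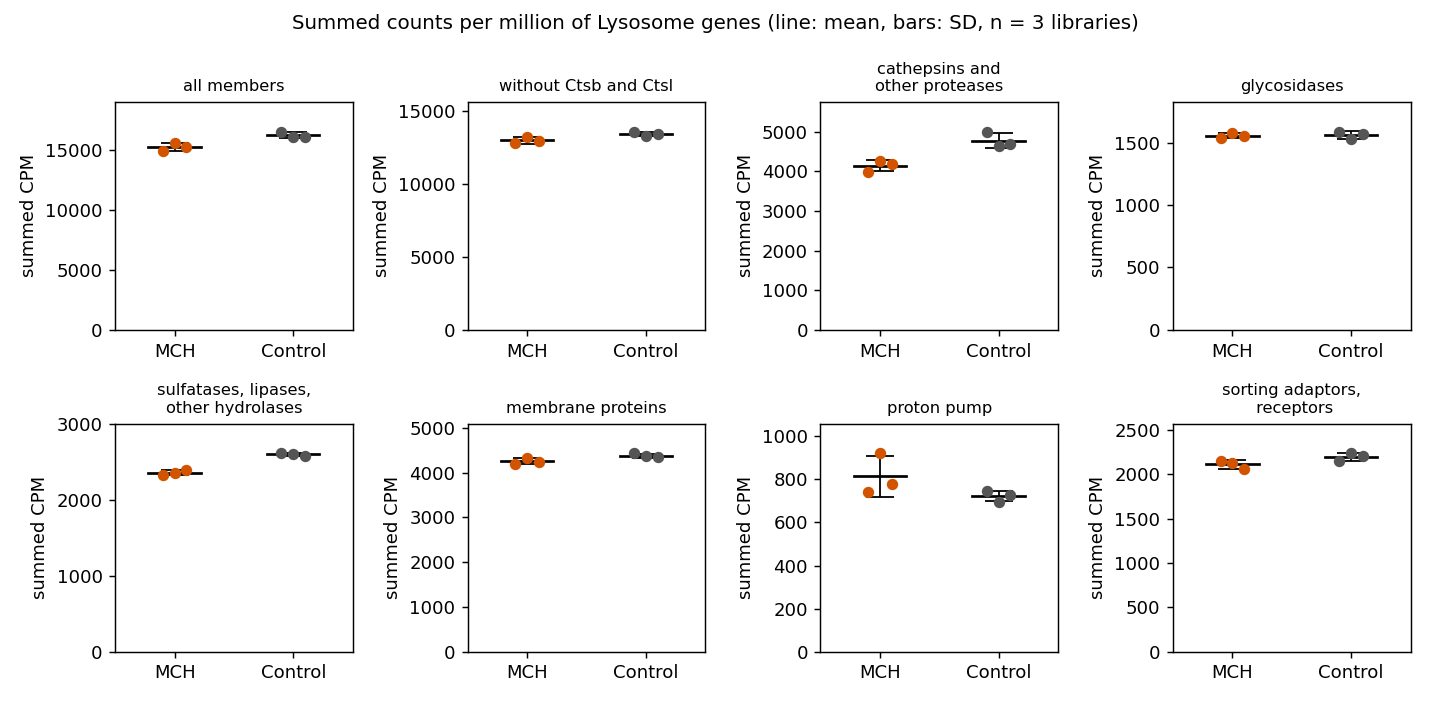
Summed CPM of all 118 lysosome genes, of the 116 without Ctsb and Ctsl, and of each class in each library, with the mean as a line and the SD as bars (n = 3 libraries a group). The MCH libraries lie below the Control libraries for all members, with or without Ctsb and Ctsl, and for the proteases, the sulfatases, lipases and other hydrolases, and the membrane proteins; the glycosidases, the proton pump and the sorting genes overlap.

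Promoters were searched for the E-box that MiT/TFE factors bind, since the pathway is known for it. The RefSeq promoter table (GRCm38.p6, 250 bases before to 50 bases after a start site) matched 94 of the 118 genes. The motif CACGTG, which reads the same on both strands, stood in a window of 23 of the 94 (24.5%), beside 8.09% of all genes with a window and 11.7% of tested genes. The longer palindrome TCACGTGA, which holds CACGTG, stood in 10 of the 94 (10.6%), beside 1.12% and 2.15%. The upstream 250 bases of 3 promoters are shown 5′ to 3′ with CACGTG in capitals: Nagpa and Ctsl, the called genes with the motif, and Lamp1, which was added after its 4 copies were seen.
Nagpa (chr16:5204013-5204262, minus strand): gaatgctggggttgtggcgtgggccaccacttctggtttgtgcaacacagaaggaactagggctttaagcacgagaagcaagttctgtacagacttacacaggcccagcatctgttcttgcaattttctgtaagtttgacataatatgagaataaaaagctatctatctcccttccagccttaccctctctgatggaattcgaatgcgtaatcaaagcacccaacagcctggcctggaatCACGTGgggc
Ctsl (chr13:64370521-64370770, minus strand): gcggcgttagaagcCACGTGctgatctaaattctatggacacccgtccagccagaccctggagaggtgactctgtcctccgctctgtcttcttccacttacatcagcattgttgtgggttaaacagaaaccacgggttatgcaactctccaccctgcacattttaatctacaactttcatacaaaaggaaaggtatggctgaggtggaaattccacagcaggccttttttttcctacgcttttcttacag
Lamp1 (chr8:13158911-13159160, plus strand): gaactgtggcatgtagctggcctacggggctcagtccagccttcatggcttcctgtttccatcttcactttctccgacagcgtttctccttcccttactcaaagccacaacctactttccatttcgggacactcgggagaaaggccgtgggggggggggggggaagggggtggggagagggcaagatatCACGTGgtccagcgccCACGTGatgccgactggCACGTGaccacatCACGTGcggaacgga
Of the 23 tested genes with the motif, 0 were higher and 2 lower (Nagpa and Ctsl), of the 64 whose window lacks it 1 was higher and 2 lower, and of the 22 with no window 2 were higher and 1 lower. Over all tested genes 3.64% were higher and 5.4% lower, and with counts this small the sets were not compared by a test. The median log2 fold change was -0.09, -0.01 and -0.01 in these sets. A match is a description of the letters and not of a bound site. The RefSeq start of Ctsl lies upstream of the gene's end in the deposited table. Gga3, Ap1s1 and Ap3d1 had a window without the motif.

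The MiT/TFE factors themselves and the proteins that dock them to mTORC1, the growth-control kinase at the lysosome, were not called by edgeR (0 of 18 tested, 3 at an unadjusted p under 0.05). DESeq2 called 1, Mitf, and limma on log2(FPKM + 1) called 0. Tfeb had 13.5, 14.2 and 11.02 CPM in the MCH libraries, against 11.6, 9.99 and 12.0 CPM in Control (0.21 ± 0.14) and Tfe3 102, 98.6 and 108 CPM in the MCH libraries, against 112, 111 and 109 CPM in Control (-0.11 ± 0.06). Mitf had 3.46, 11.3 and 10.3 CPM in the MCH libraries, against 16.0, 21.7 and 21.6 CPM in Control, without overlap but with a low MCH replicate 1 (-1.24 ± 0.45, edgeR adjusted p = 0.154).

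Among related genes outside the KEGG rows, 1 of 74 tested was higher and 4 were lower (1.35% and 5.41%, beside 3.64% and 5.4% of all tested genes). Gpnmb, a glycoprotein of lysosomes and melanosomes that is also known as osteoactivin, stood at 68.9, 57.5 and 63.1 CPM in the MCH libraries, against 145, 148 and 143 CPM in Control. Every MCH library had a lower level than any Control library, and Gpnmb fell by 1.201 ± 0.08 on the log2 scale (edgeR adjusted p = 0.000303; highest adjusted p = 0.00383 with 1 library left out). Plekhm1, an adaptor for fusion with lysosomes, fell by 0.44 ± 0.09 (edgeR adjusted p = 0.0255), a call lost without MCH replicate 2 or 3 or Control replicate 2 or 3. Of 17 autophagy genes, Wipi1, which acts in early autophagosome formation, fell by 0.39 ± 0.07 (edgeR adjusted p = 0.0154), a call lost without MCH replicate 2 or 3 or Control replicate 2. Atg5, part of the conjugation machinery, rose by 0.33 ± 0.08 (edgeR adjusted p = 0.0446), a call lost without any 1 library, with upper-quartile scaling and without a filter. Of 5 tested inhibitors of proteases, Serpinb1a fell by 0.97 ± 0.17 (edgeR adjusted p = 0.0172), a call lost without MCH replicate 3 or Control replicate 2, while the cystatin genes Cst3 and Cstb, whose products block cysteine cathepsins, were -0.10 ± 0.11 and 0.07 ± 0.09.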

How the data were processed

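Polyadenylated RNA of 3 MCH and 3 Control libraries was sequenced. The table that the authors deposited holds counts (whole numbers), FPKM and their own q-values (adjusted p-values) for each gene, per the file headers. No source used here names the aligner, the counter or the strand setting. The submitters' processing notes name GRCm38 and mm10. The counts were scaled by TMM, filtered (minimum count 10, minimum total 15) and tested in R 4.3.3 with edgeR 4.0.16 (quasi-likelihood, robust), with Benjamini-Hochberg adjustment over 13662 of 19353 genes and a threshold of 0.05. CPM values use the TMM scaling. Standard errors were computed as the size of the unshrunken log2 fold change over the square root of F. The deposited FPKM values gave levels compared between genes. The fit was first tested on simulated data.

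The alternatives were other scalings and filters, DESeq2 1.42.0, limma 3.58.1 on log2(FPKM + 1) and log2(FPKM + 0.1), a replicate block and leaving out each library. Gene classes, marker lists and members were chosen with earlier results of these data known. Named genes are those past the threshold, the 3 most abundant and the 3 with the largest uncalled difference of each class, and well-known or osteoclast members; others, such as partners in a complex, were chosen after their values were seen. All 118 gene IDs matched GENCODE M21. Of the 118, 34 share exon bases with another counted gene, 16 of them over more than 10% of their exon bases. Library totals of 16521980 to 18803949 counts limit the precision for genes with few counts. The authors' fold-change column was not used. The values of some genes are not reported here.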

Additional observations from a re-analysis of the deposited data

How the results depend on the processing

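Calls of the 3 higher and 5 lower lysosome genes were all kept with RLE size factors, upper-quartile scaling or a minimum count of 30. No other lysosome gene was called in these fits. Without a filter the counts were also 3 and 5, but 7 of the 8 calls were kept and Cd68 was new. With limma the counts were 3 and 4, with 6 calls kept, Ap3d1 and Nagpa lost and Psap new. DESeq2 called 6 higher and 6 lower. With 1 library left out there were 0 to 4 higher and 1 to 4 lower, and over all genes 65 to 722 higher (497 with all libraries) and 256 to 867 lower (738). The highest counts over all genes, 722 and 867, came without MCH replicate 1, and the lowest, 65 and 256, without MCH replicate 3. Each of these fits had 1 library fewer, and the cause of the range was not tested. The members' median then ran from -0.0507 (without Control replicate 2) to -0.0192. Whether same-numbered MCH and Control libraries were paired is not stated. After centring on the group means, same-numbered libraries had correlations of -0.161, -0.0386 and -0.0138. With 3 libraries a group, these values cannot settle whether a pairing exists. A replicate block left 0 higher and 1 lower lysosome gene (Gga3), 28 and 151 over all genes, and 0 and 1 of the related genes. For the related genes, whose alternatives were chosen after seeing the data, 0 were higher with upper-quartile scaling or no filter, 7 lower with DESeq2, and 0 higher and 1 to 8 lower with 1 library left out. Signs turned for some uncalled genes. Aga was -0.00636 with upper-quartile scaling, -0.00380 with a minimum count of 30, -0.00644 with limma on log2(FPKM + 1) and -0.00651 on log2(FPKM + 0.1). With 1 library left out, log2 fold changes ran from -0.0470 to 0.0546 for Aga, -0.0503 to 0.0802 for Ap3s1, -0.00805 to 0.17 for Ctsk, -0.62 to 2.20 for Ctss, -0.0857 to 0.0109 for Ctsz, -0.0567 to 0.0165 for Hexa, -0.12 to 0.74 for Idua, -0.0491 to 0.0128 for Lamp1, -0.0503 to 0.0225 for Lamp2 and -0.15 to 0.00838 for M6pr. Depth limits genes with few counts: 9 of the 118 were not tested.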

Other observations

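Among lysosome genes at a mean of 5 CPM or more, 4 had libraries of 1 group that differed by 2-fold or more. Idua, the iduronidase of heparan and dermatan sulfate, had 12.4, 3.89 and 12.6 CPM in the MCH libraries, against 3.69, 13.1 and 7.84 CPM in Control, so it varied within both groups. Ctns, the cystine transporter, had 20.7, 20.9 and 19.7 CPM in the MCH libraries, against 24.2, 7.85 and 24.9 CPM in Control, with the spread in Control. Ap1g1 and Atp6v0c, described above, were the others.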
